A study of Arabidopsis thaliana and Arabidopsis thaliana x Arabidopsis arenosa and Arabidopsis arenosa with 18 samples.

Results

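Hybrid seeds of 2 crosses were compared directly: Arabidopsis thaliana Col-0 mothers pollinated by Arabidopsis arenosa (Col hybrid seeds), against A. thaliana C24 mothers pollinated by the same species (C24 hybrid seeds). The members are the 2 seed libraries of each cross, 4 of the 14 libraries in the deposited gene count table, which stand for 18 sample records, and every locus of that table entered the comparison. The submitters call the Col-0 cross incompatible and the C24 cross compatible. All mothers, those of the controls included, were diploid and hemizygous for a male sterility construct (lines ColA9 and C24A9) and were pollinated by hand, without emasculation. A single diploid A. arenosa var. Strecno plant gave the pollen for every hybrid cross. The control seeds used here were ColA9 x Col-0 (Col control) and C24A9 x C24 (C24 control), 2 libraries each. Whole siliques, the seed pods, of both hybrid crosses gave another 2 libraries each. All of this material was taken 3 days after pollination. The labels number the replicates but do not say whether they came from separate plants, so p-values measure the spread between these libraries, which may be technical.

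A seed holds an embryo and an endosperm, both made at fertilisation, inside a seed coat made by the mother alone. The endosperm nourishes the embryo, and in crosses between species it is the tissue that most often fails. In Arabidopsis its early growth as a syncytium is tied to type I MADS-box transcription factors, to the FIS Polycomb complex and to genes read from 1 parental copy only. These seeds were sequenced whole, so a gene's level sums the mother's seed coat, the endosperm and the embryo, and the reads are not split by parent. Fewer cells of a type and less RNA per cell cannot be told apart in such material.

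The Col hybrid libraries held 16149496 and 8931520 gene reads, the C24 hybrid libraries 12563500 and 11535647, and the control libraries between 15363061 and 15915323. The log2 CPM of the 2 libraries of a group correlated at r = 0.98 across genes for Col hybrid seeds, 0.978 for C24 hybrid seeds, 0.93 for Col control seeds and 0.976 for C24 control seeds, while pairs drawn from the 2 hybrids lay between 0.921 and 0.939. Replicate 1 had reads on more genes than replicate 2 in every seed group, by the most in Col control seeds (31430 and 23123 genes), then in C24 control (28243 and 23105), C24 hybrid (26084 and 22555) and Col hybrid seeds (24439 and 23272). The tissue was checked on its markers: the 23 seed coat and flavonoid genes summed to 20100 and 22300 CPM (gene reads scaled to a common library size) in Col hybrid seeds and 19300 and 24200 CPM in C24 hybrid seeds. The 10 pollen genes summed to 24.3 and 18.1 CPM in Col hybrid seeds and 16.5 and 15.4 CPM in C24 hybrid seeds, with the sperm cell genes GEX2 and DUO1 at 0 reads in all 4. The 8 seed storage and oil body genes, which belong to later stages, reached at most 0.709 CPM in a Col hybrid library and 2.17 CPM in a C24 hybrid library.

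Of 20552 genes tested, 2009 (9.78%) differed between Col hybrid and C24 hybrid seeds, 1068 (5.2%) higher and 941 (4.58%) lower in Col hybrid seeds (edgeR quasi-likelihood test, Benjamini-Hochberg adjusted p under 0.05). The median absolute log2 fold change of these genes was 1.33, and 1323 of them differed at least 2-fold. Differences of at least 8-fold were found in both directions, 219 higher and 210 lower. The median over all genes tested was -0.01 on the log2 scale. The values of the 2 hybrids did not overlap at 10625 genes (51.7%). The count was 1304 without Col hybrid library 1, 1325 without Col hybrid library 2 and 1042 without C24 hybrid library 1, with 1 library left in that group and its spread taken from the other groups. By chromosome, the called share ran from 8.68% of 4053 genes on chromosome 3 to 11.2% of 3076 genes on chromosome 4.

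The question the control seeds answer is which of these differences are also present between Col and C24 without any A. arenosa father. The controls differ in both parents, Col-0 or C24, while the hybrids differ in the mother only. A difference between the fathers is therefore part of the control difference and of its comparison with the hybrids, and cannot be told apart here. Col control and C24 control seeds share no library with the hybrids, and 3444 genes (16.8%) differed between them, 1613 (7.85%) higher and 1831 (8.91%) lower in Col control. That count was 1950 without Col control library 1 (1181 higher and 769 lower), 2082 without C24 control library 1 and 1578 without C24 control library 2. Of the 2009 genes, 1135 (56.5%, and 33.0% of the 3444) differed the same way between the controls, 809 (40.3%) were not called there and 65 (3.24%) were called the opposite way. The shared part was 669 of the 1068 genes higher in Col hybrid seeds (62.6%) and 466 of the 941 lower (49.5%). The shared count was 727 without Col hybrid library 1, 742 without C24 hybrid library 1, and 743 without replicate 1 of both controls. A separate test, the interaction, asked whether the hybrid difference itself differed from the control difference. It was passed by 285 of all genes (1.39%), 200 (0.973%) towards lower and 85 (0.414%) towards higher in the Col hybrid. Among the 2009 genes it was passed by 191 (9.51%), 143 of them lower and 48 higher in Col hybrid seeds. The interaction count of 285 was 457 without Col hybrid library 1, 542 without C24 hybrid library 2, 445 without C24 control library 1, 153 when replicate 1 of both controls was left out and 33 when all 7 groups were fitted together.

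**Figure D1:**
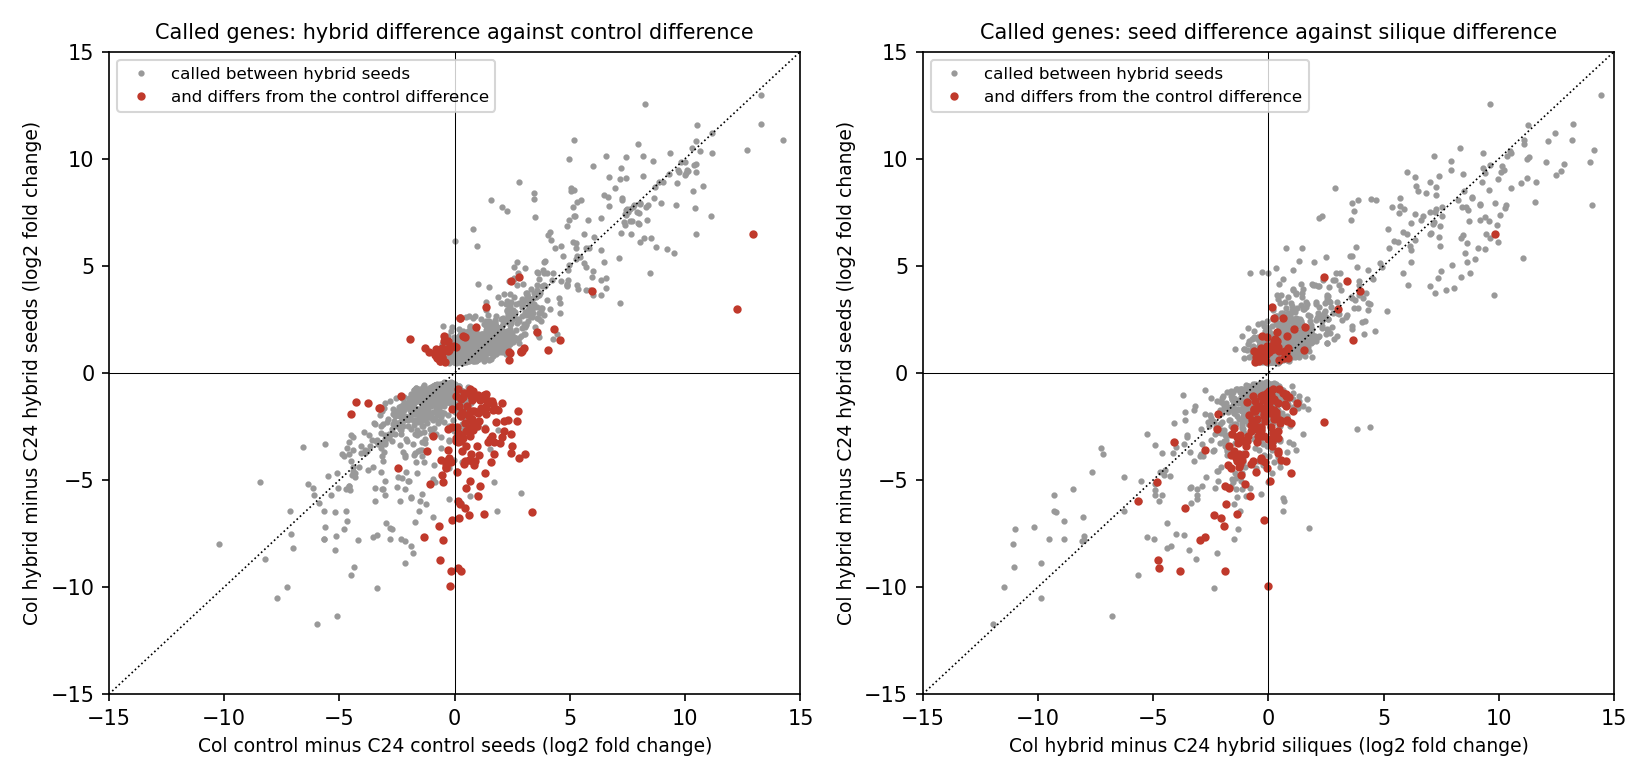
Genes called between Col hybrid and C24 hybrid seeds, each point 1 gene. The vertical axis gives the log2 fold change in hybrid seeds. The horizontal axis gives the log2 fold change between control seeds (left panel) or between hybrid siliques (right panel). Genes that passed the interaction test (191) are in red, and some of them are also among the 1135 genes shared with the controls. The diagonal marks equal log2 fold changes on both axes.

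The largest fitted differences in favour of the Col hybrid were at loci with almost no reads in C24 seeds. LCR48, a cysteine-rich secreted peptide gene of the defensin-like kind, had 239 and 353 CPM in Col hybrid seeds, against 0.163 and 0 CPM in C24 hybrid seeds. With 2 reads in the C24 hybrid its ratio was 3240, with a counting interval of 896 to 26700. It had 75.4 and 103 CPM in Col control seeds and no read in C24 control seeds, so that the gap was also present between the controls. AT4G07825, which encodes an uncharacterised protein, had 65.0 and 42.6 CPM in Col hybrid seeds and no read in C24 hybrid seeds, and was at least 209-fold higher at a floor of 3 reads per library. The pseudogene AT2G06950 had 195 and 156 CPM in Col hybrid seeds, against 0.0815 and 0.0905 CPM in C24 hybrid seeds. These 10 were ranked by fitted values, which at 0 reads depend on the prior count: AT4G10690, AT4G14905 and AT2G14878 were at least 44.8-, 49.8- and 63.5-fold higher, bounds that do not place them above genes outside the 10. The other 7 of the 10, AT2G14460, AT2G15292, AT2G14878, AT3G48230, AT4G14905, AT2G11240 and AT4G10690, had between 10.4 and 94.9 CPM in Col hybrid libraries and at most 1 read in a C24 hybrid library. All 10 differed the same way between the controls and between the hybrid siliques.

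Among the 10 largest in the other direction, those shared with the controls were again mostly uncharacterised loci and mobile elements. The pseudogene AT3G44215 had no read in Col hybrid seeds, against 27.4 and 33.5 CPM in C24 hybrid seeds, and was at least 113-fold lower. SADHU3-1, a member of a family of non-coding retroelements, had 0.429 and 0.354 CPM in Col hybrid seeds, against 73.2 and 103 CPM in C24 hybrid seeds (log2 fold change -7.74 ± 0.63 SE, adjusted p = 0.000198). In control seeds it had 2.2 and 0.243 CPM in Col, against 62.7 and 64.4 CPM in C24. AT4G07965, uncharacterised, had 0.0613 and 0 CPM in Col hybrid seeds, against 11.5 and 13.5 CPM in C24 hybrid seeds, and no read in Col control seeds. AT5G26345, AT1G63540 and AT4G18250, the last a receptor-like kinase gene, likewise had at most 0.354 CPM in a Col hybrid library, and were lower in Col control seeds too (log2 fold changes of -4.36, -4.81 and -5.18).

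A locus was called near absent in a hybrid where it had at most 3 reads in each of its libraries and at least 5 CPM in both of the other hybrid, a choice made after the values were seen and given as a description. By this measure 47 loci were near absent in C24 hybrid seeds and 17 in Col hybrid seeds. Of the 47, 34 were also near absent in C24 control seeds and none reached 5 CPM in both libraries there. Of the 17, 3 were near absent in Col control seeds and 2 reached 5 CPM in both. That 3 rests on Col control library 1, the one with reads on the most genes: in Col control library 2 alone 10 of the 17 had at most 3 reads, and in C24 control libraries 1 and 2 alone 35 and 43 of the 47. All 47 differed the same way between the controls and 45 between the siliques, while of the 17 the numbers were 13 and 10. Of the 47 loci 31 are annotated as protein-coding and 11 as pseudogenes, and 17 share more than 5% of their exon sequence with other places in the genome. The reads were aligned to the TAIR10 reference, which is a Col-0 genome, so a sequence that differs or is missing in C24 and a gene that C24 seeds do not express cannot be told apart.

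Jasmonate and ethylene genes formed the list with the largest share of calls. Of its 23 genes 17 were tested, 6 were higher in Col hybrid seeds, none was lower and 11 were not called (4 higher without Col hybrid library 1), with a median log2 fold change of 0.58 against -0.01 over all genes, of which 5.2% were higher. THI2.1, an antimicrobial thionin induced by jasmonate, had 2310 and 2880 CPM in Col hybrid seeds, against 408 and 661 CPM in C24 hybrid seeds (log2 fold change 2.28 ± 0.23, adjusted p = 0.000641). VSP2, a vegetative storage protein gene, had 13.4 and 9.57 CPM in Col hybrid seeds, against 1.22 and 1.09 CPM in C24 hybrid seeds (3.31 ± 0.42, adjusted p = 0.0018). VSP1 stood at 16.6 and 9.45 CPM in Col hybrid seeds and 1.63 and 2.26 CPM in C24 hybrid seeds, and 5.77% of its exon sequence recurs elsewhere. Also higher were LOX2 (1.83 ± 0.35, adjusted p = 0.0129) and AOS (0.74 ± 0.15, adjusted p = 0.0156), enzymes of jasmonate synthesis, and the ethylene synthesis gene ACS2 (4.1 ± 1.07, adjusted p = 0.0473), which had 4 reads or fewer in each C24 hybrid library. The AOS call ended without any 1 of the 4 hybrid libraries (adjusted p from 0.0594 to 0.28), without C24 control library 2 (0.0576) and with all 7 groups fitted together (0.101), and the ACS2 call without Col hybrid library 1 (0.126), under upper quartile scaling (0.0518) and with all 7 groups (0.0616). THI2.1, VSP2 and VSP1 were higher in Col control seeds as well, by 2.08, 2.43 and 2.33 on the log2 scale, and their interactions were not called (adjusted p of 0.798, 0.492 and 0.702).

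Of 11 salicylate and immune genes tested 3 were called (27.3%, against 9.78% of all genes), and of 12 immune-related WRKY transcription factors, which act downstream of pathogen recognition, none was. ALD1, the enzyme that starts pipecolate synthesis, had 20.4 and 29.3 CPM in Col hybrid seeds, against 0.489 and 0.0905 CPM in C24 hybrid seeds (log2 fold change 6.32 ± 0.6, adjusted p = 0.000415). Its control values were 38.4 and 57 CPM in Col, against 1.19 and 0.262 CPM in C24. FLS2, the flagellin receptor, was also higher (0.76 ± 0.16, adjusted p = 0.0208) and SAG101, a partner of the immune regulator EDS1, was lower (-0.92 ± 0.18, adjusted p = 0.0156). The FLS2 call ended without any 1 of the 4 hybrid libraries (adjusted p from 0.0879 to 0.312) and without C24 control 2 (0.0521) and with all 7 groups fitted together (0.141), and the SAG101 call without Col hybrid 1 (0.126), Col hybrid 2 (0.107) or C24 hybrid 2 (0.361). The WRKY list leaves out WRKY10, a seed size gene counted with the endosperm growth list. None of its 12 tested genes passed the test between the hybrids with edgeR or DESeq2, and none had an unadjusted p under 0.05, with a median of -0.25. Between the controls 5 of the 12 were higher in Col, with a median of 1.72. WRKY33, named after its values were seen, had 2.08 and 2.01 CPM in Col hybrid seeds and 1.87 and 2.44 CPM in C24 hybrid seeds, with 4.29 and 9.77 CPM in Col control, against 0.659 and 0.525 CPM in C24 control seeds, and its interaction was called (-3.62, adjusted p = 0.0435). Summed over the 18 genes of the list, the level was 44.9 and 40.2 CPM in Col hybrid seeds and 35.9 and 43.1 CPM in C24 hybrid seeds.

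Other differences touched single regulators and families, picked after the values were seen, and not all of these were shared with the controls. Over all genes 5.2% were higher and 4.58% lower in Col hybrid seeds. Between the controls 7.85% were higher and 8.91% lower in Col. AGL31, a MADS-box relative of the flowering repressor FLC, had 42.9 and 48.1 CPM in Col hybrid seeds, against 8.23 and 6.16 CPM in C24 hybrid seeds (2.65 ± 0.38, adjusted p = 0.00322), with 57.3 and 57 CPM in Col control seeds, against 6.33 and 16.5 CPM in C24 control seeds. Of 27 glutathione transferases of the phi and tau classes, detoxifying enzymes, 7 were higher and 2 lower in Col hybrid seeds. GSTU13 had 36.6 and 49.7 CPM in Col hybrid seeds, against 7.26 and 12.5 CPM in C24 hybrid seeds (2.13 ± 0.26, adjusted p = 0.00156), and was higher in Col control seeds too (1.76). Among 89 NBS-LRR disease resistance genes, whose products sense pathogen effectors, 12 were higher and 9 lower in Col hybrid seeds, and 21 were higher and 4 lower in Col control seeds. Of 10 SADHU elements tested, 3 were higher and 4 lower. Ribosomal protein genes, of which 95 of 329 tested were lower and 3 higher in Col control seeds, gave 12 lower and 10 higher in Col hybrid seeds, with a median of -0.07.

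**Figure D2:**
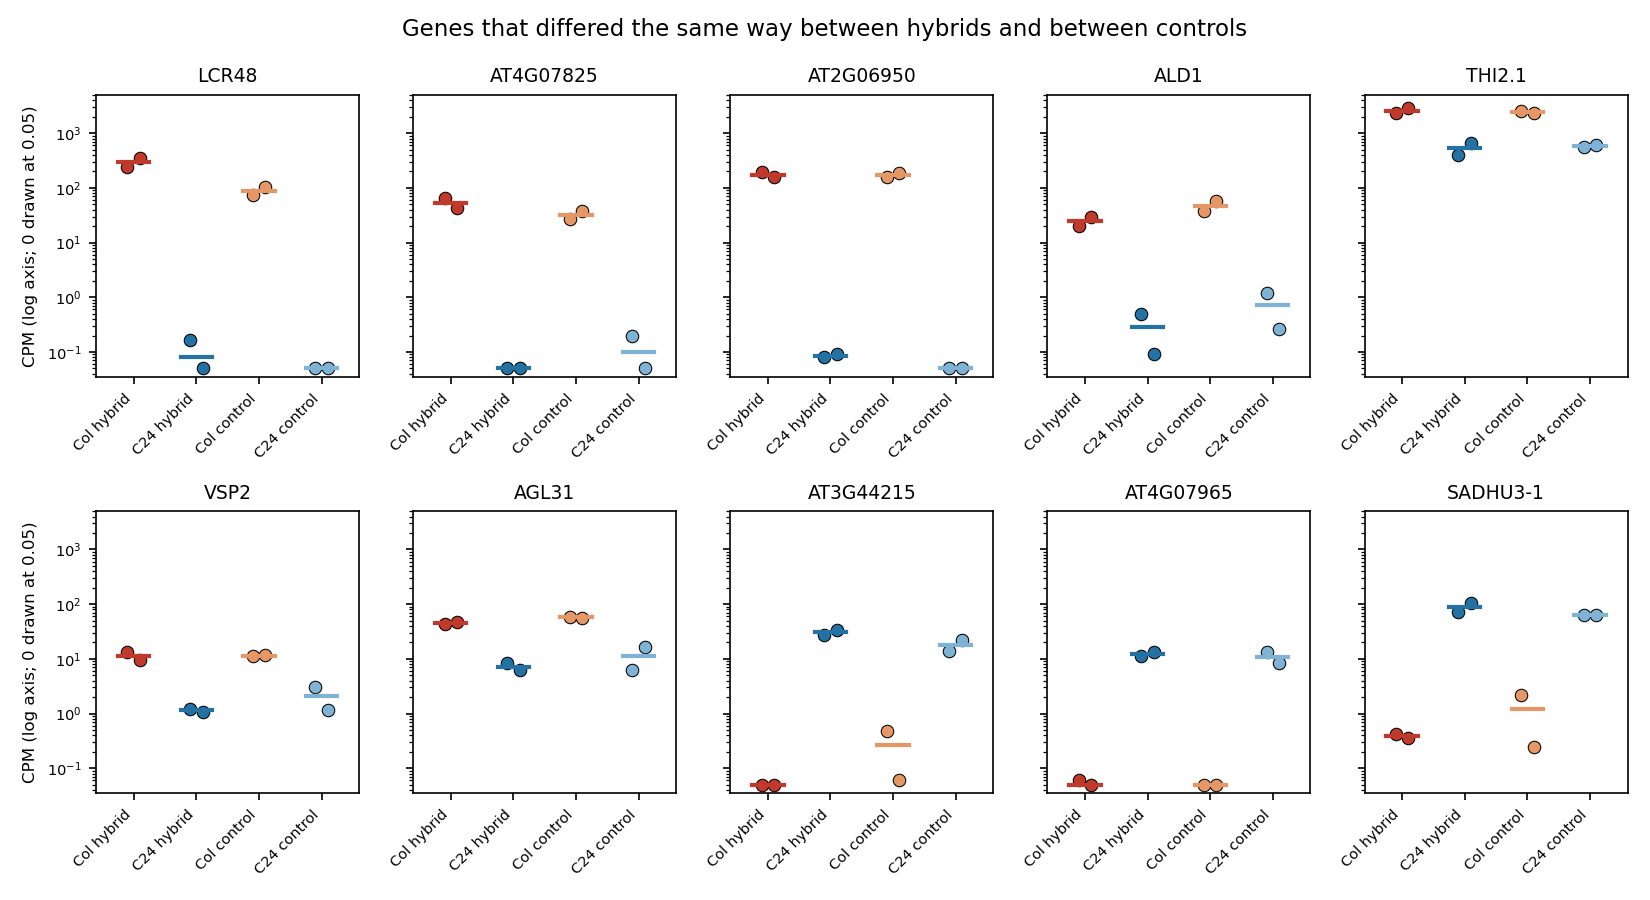
CPM on a log axis in each library of Col hybrid, C24 hybrid, Col control and C24 control seeds. The 10 genes differed the same way between the hybrids and between the controls. Points are libraries, bars are means, and values of 0 are drawn at 0.05. LCR48, AT4G07825, AT2G06950, ALD1, THI2.1, VSP2 and AGL31 lie higher in both Col groups, AT3G44215, AT4G07965 and SADHU3-1 lower.

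The genes whose hybrid difference departed from the control difference were mostly lower in Col hybrid seeds, 143 of 191. The size of this lean depends on the processing. Over all genes the interaction calls were 85 higher and 200 lower. They were more even with DESeq2 (311 and 370) and without a filter on low counts (425 and 627). They were less even with RLE scaling (71 and 215), upper quartile scaling (60 and 211) and all 7 groups (8 and 25). Lower calls outnumbered higher ones in every run, though by little without Col hybrid library 1. The 143 genes' libraries were uneven: at 134 of the 143, C24 hybrid library 1 was higher than C24 hybrid library 2, with a median ratio of 1.6 where the ratio over all genes was 1.02, and the part of this gap in the result was not tested. Without C24 hybrid library 1, 113 of the 143 were still called between the hybrids, 123 without Col hybrid library 1 and 84 when all 7 groups were fitted together. Set beside their own controls with a pseudocount of 0.5 CPM, 50 were at least 2-fold lower in Col hybrid than in Col control seeds only, 44 were at least 2-fold higher in C24 hybrid than in C24 control seeds only, 38 did both and 11 neither. The 48 genes higher in Col hybrid seeds split as 5, 21, 1 and 21 in the same 4 classes, with the directions turned round. These splits use the libraries that chose the genes and are a description. Hybrid seeds also hold RNA of the A. arenosa father, whose reads were counted on the A. thaliana reference, and control seeds hold none. The part of this in the splits was not tested.

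AT4G32380, a pectin lyase family protein of the kind that acts on cell wall pectin, had the lowest hybrid log2 fold change among these genes with reads in both hybrids: 0.368 and 1.3 CPM in Col hybrid seeds, against 588 and 277 CPM in C24 hybrid seeds (log2 fold change -9.24 ± 0.55, adjusted p = 4.88e-05). The control seeds had similar levels, 93.3 and 105 CPM in Col and 81.9 and 84.1 CPM in C24, and the interaction was -9.5 (adjusted p = 0.000582). GGT2, a gamma-glutamyl transpeptidase of glutathione metabolism picked after its values were seen, had 2.08 and 2.48 CPM in Col hybrid seeds, against 446 and 202 CPM in C24 hybrid seeds (-7.17 ± 0.5, adjusted p = 9.69e-05). It had 113 and 107 CPM in Col control seeds and 226 and 133 CPM in C24 control seeds. For both genes the low values belonged to Col hybrid seeds alone among the 4 groups, and neither passed the test between siliques (adjusted p of 0.211 and 0.254). Beside AT4G32380, 3 of the 10 genes with the lowest fitted values had a called interaction as well, with at most 5 reads in a Col hybrid library: AT1G22420, a hydroxyproline-rich glycoprotein gene, AT2G19220, with a Myb/SANT-like domain, and AT5G40680, with kelch repeats. In control seeds AT1G22420 had 3.16 and 3.7 CPM in Col and 4.42 and 6.36 CPM in C24, AT2G19220 had 7.57 and 9.22 CPM and 9.62 and 14 CPM, and AT5G40680 had 17.8 and 19.1 CPM and 47.7 and 45.5 CPM.

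Wall-loosening and wall-digesting enzymes were among the genes lower in Col hybrid seeds with a called interaction, and these families were picked after the values were seen, so their counts are a description. Over all genes 5.2% were higher and 4.58% lower in Col hybrid seeds, and the interaction was called towards lower at 0.973%. BG1, a beta-1,3-glucanase of the kind that digests callose, had 4.04 and 6.62 CPM in Col hybrid seeds, against 272 and 160 CPM in C24 hybrid seeds (-5.39 ± 0.36, adjusted p = 7.42e-05), with 61.4 and 58.1 CPM in Col control and 50.2 and 35.4 CPM in C24 control seeds. Of 20 GH9 genes tested, endoglucanases that act on cellulose, 6 were lower and none higher, 3 of them with a called interaction. GH9B10 had 48.7 and 66.3 CPM in Col hybrid seeds, against 1410 and 860 CPM in C24 hybrid seeds (-4.31 ± 0.28, adjusted p = 7.42e-05). Its controls lay near the Col hybrid, at 52.3 and 42.4 CPM in Col and 27.4 and 24.9 CPM in C24. GH9B9 had 229 and 297 CPM in Col hybrid seeds, against 2890 and 1630 CPM in C24 hybrid seeds, and GH9B11 had 2.33 and 3.43 CPM, against 55.8 and 31.4 CPM. GH9B9, GH9B10 and GH9B11 share 33.1%, 36.4% and 19.8% of their exon sequence with other places in the genome, so reads may have been divided among relatives. MUM2, the beta-galactosidase that trims seed coat mucilage, had 22.8 and 20.2 CPM in Col hybrid seeds, against 238 and 127 CPM in C24 hybrid seeds (-3.08 ± 0.34, adjusted p = 0.000897), and BGAL7, of the same enzyme family, showed 25 and 18.1 CPM, against 143 and 76.5 CPM.

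Expansins, which loosen walls without cutting them, gave 4 lower and 1 higher of 19 tested. EXPA21 had 15.4 and 23.4 CPM in Col hybrid seeds, against 429 and 247 CPM in C24 hybrid seeds (-4.14 ± 0.31, adjusted p = 0.000135). In the controls it had 564 and 506 CPM in Col and 310 and 271 CPM in C24, so that here the Col hybrid was the group that departed from the other 3. EXPA23, EXPA25 and EXPB4 were lower by smaller amounts (-1.31, -1.14 and -1.09) and higher in Col control seeds than in C24 control seeds (1.48, 0.99 and 0.93). Their calls ended without C24 hybrid library 1 (adjusted p of 0.0735, 0.0524 and 0.107), and those of EXPA23 and EXPB4 also without Col hybrid library 1 (0.0577 and 0.119). With all 7 groups fitted together none of these 3 was called (0.32, 0.148 and 0.412). EXPA23 and EXPA25 share 64.7% and 62.9% of their exon sequence with other places in the genome, so reads may have been divided among relatives. EXPA6 went the other way, with 113 and 85.5 CPM in Col hybrid seeds, against 41.1 and 39.2 CPM in C24 hybrid seeds, and was higher in Col control seeds too (1.44).

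Small secreted proteins made up another group, also picked after the values were seen, with the same shares over all genes as background. Of 52 LCR and SCRL genes tested, relatives of defensins and of the pollen recognition ligand SCR, 10 were lower and 3 higher, and 6 of the lower ones had a called interaction. LCR35 had 0.245 and 0.118 CPM in Col hybrid seeds, against 15.7 and 13.1 CPM in C24 hybrid seeds (-6.11 ± 0.32, adjusted p = 3.07e-05), with 47 and 47.9 CPM in Col control and 44.6 and 35.7 CPM in C24 control seeds. SCRL14 had 3.25 and 8.03 CPM in Col hybrid seeds, against 47.1 and 49.2 CPM in C24 hybrid seeds. LCR21, LCR22 and LCR23 were lower too, with log2 fold changes of -2.9, -4.17 and -4.12. In LCR35, LCR21, LCR22 and LCR23 every control library lay above both C24 hybrid libraries, and in SCRL14 every control library lay between the hybrids. With all 7 groups fitted together the calls of LCR21, LCR23 and SCRL14 ended (adjusted p of 0.18, 0.0955 and 0.0554). The DUF239 family, of unknown function, gave 13 lower and 3 higher of 35 tested, 8 of the lower ones with a called interaction. AT5G46810 had 0.49 and 1.65 CPM in Col hybrid seeds, against 123 and 59.2 CPM in C24 hybrid seeds, with 15.3% of its exon sequence recurring, and AT5G25410 had 0.551 and 0.236 CPM, against 77.4 and 28.1 CPM. Proteins of the self-incompatibility S1 type, named after a poppy pollen recognition protein, gave 8 lower and none higher of 32 tested, with a median of -1.37, or -1.1 with genes at 0 reads set to their bound. ECA1 gametogenesis proteins, a cysteine-rich family, gave 5 lower and none higher of 16 tested. Between the controls the ECA1 genes gave 7 higher and none lower in Col, and the LCR and SCRL genes 12 higher and 3 lower. The DUF239 genes gave 5 higher and 3 lower there and the S1 genes 2 and 2, where 7.85% of all genes were higher and 8.91% lower.

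Of the genes turned round between hybrids and controls, those with the lowest p in the hybrid comparison were AT3G10595, AT1G56233, NAKR1, AT2G02498 and AT1G24062, all lower in Col hybrid seeds and higher in Col control seeds. AT1G56233, a protein of unknown function, had 0.368 and 1.42 CPM in Col hybrid seeds, against 82.5 and 64.4 CPM in C24 hybrid seeds (-6.6 ± 0.39, adjusted p = 4.88e-05), and 85.1 and 110 CPM in Col control, against 42.3 and 37.3 CPM in C24 control seeds. AT3G10595, a homeodomain-like protein, had 0.429 and 0.591 CPM in Col hybrid seeds, against 31.1 and 22.8 CPM in C24 hybrid seeds, with 20.6 and 25.8 CPM in Col control, against 12.5 and 10.8 CPM in C24 control seeds. NAKR1, a heavy-metal-domain protein, had 10 and 10.9 CPM in Col hybrid seeds, against 72.5 and 60.8 CPM in C24 hybrid seeds (-2.68 ± 0.17, adjusted p = 6.57e-05). In NAKR1 the C24 hybrid was the outlying group, with 24.2 and 27.1 CPM in Col control and 16.5 and 13.3 CPM in C24 control seeds. AT2G02498 stood at 8.51 and 13.9 CPM in Col hybrid seeds, against 191 and 196 CPM in C24 hybrid seeds, and the cysteine-rich AT1G24062 at 79.4 and 73.6 CPM, against 267 and 254 CPM. Of the 65 genes turned round in this way, 51 were lower in Col hybrid and higher in Col control seeds, and 64 had a called interaction. The AT1G24062 call ended when all 7 groups were fitted together (adjusted p = 0.143).

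A run of auxin response factors on chromosome 1, transcription factors that carry the auxin signal, was close to absent in Col hybrid seeds. The family was picked after the values were seen, so its count is a description. Of all 22 auxin response factors tested, 7 were lower and none higher, where 4.58% of all genes were lower and 5.2% higher. ARF13 had no read in Col hybrid seeds, against 7.26 and 3.53 CPM in C24 hybrid seeds, and was at least 20-fold lower; its controls held 7.09 and 10.7 CPM in Col and 8.44 and 11.5 CPM in C24, and the interaction was called (adjusted p = 0.0162). ARF12, ARF14, ARF15, ARF20, ARF21 and ARF22 had at most 2 reads in a Col hybrid library, against 1.63 to 14.8 CPM in C24 hybrid libraries. ARF15, ARF20, ARF21 and ARF22 were also lower in Col control seeds (-1.82, -2.79, -2.71 and -2.8), and no interaction of these 6 was called, with adjusted p from 0.0513 to 0.0951. Between 36.5% and 59% of the exon sequence of these 6 recurs elsewhere, while ARF13 has none that does.

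The genes higher in Col hybrid seeds with a called interaction were fewer and moved less, with a median log2 fold change of 1.13 where that of the 143 lower genes was -2.7. Some of them had a smaller gap between the hybrids than between the controls, such as BZIP9 (log2 fold changes of 1.17 and 3.0). Others, MT2A and MYB3 among them, differed more between the hybrids. MT2A, a metallothionein that binds metal ions, had 127 and 189 CPM in Col hybrid seeds, against 21.7 and 31.1 CPM in C24 hybrid seeds (2.58 ± 0.26, adjusted p = 0.000572). The controls lay with the Col hybrid, at 107 and 130 CPM in Col and 113 and 91 CPM in C24. MYB3, a repressor of phenylpropanoid synthesis, had 27.6 and 33 CPM in Col hybrid seeds, against 9.95 and 11.8 CPM in C24 hybrid seeds (1.48 ± 0.16, adjusted p = 0.000768), with 23 and 20.3 CPM in Col control and 26.6 and 26.8 CPM in C24 control seeds. JR1, a jacalin-like lectin induced by jasmonate, had 80.4 and 54.9 CPM in Col hybrid seeds, against 25.8 and 19.9 CPM in C24 hybrid seeds (1.57 ± 0.27, adjusted p = 0.00871). Between the controls it was lower in Col, with 57.7 and 48.7 CPM, against 246 and 157 CPM in C24. GSTF14 had 13.3 and 18 CPM in Col hybrid seeds, against 1.3 and 3.89 CPM in C24 hybrid seeds (2.59 ± 0.42, adjusted p = 0.00587), and its interaction was not called (adjusted p = 0.1).

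**Figure D3:**
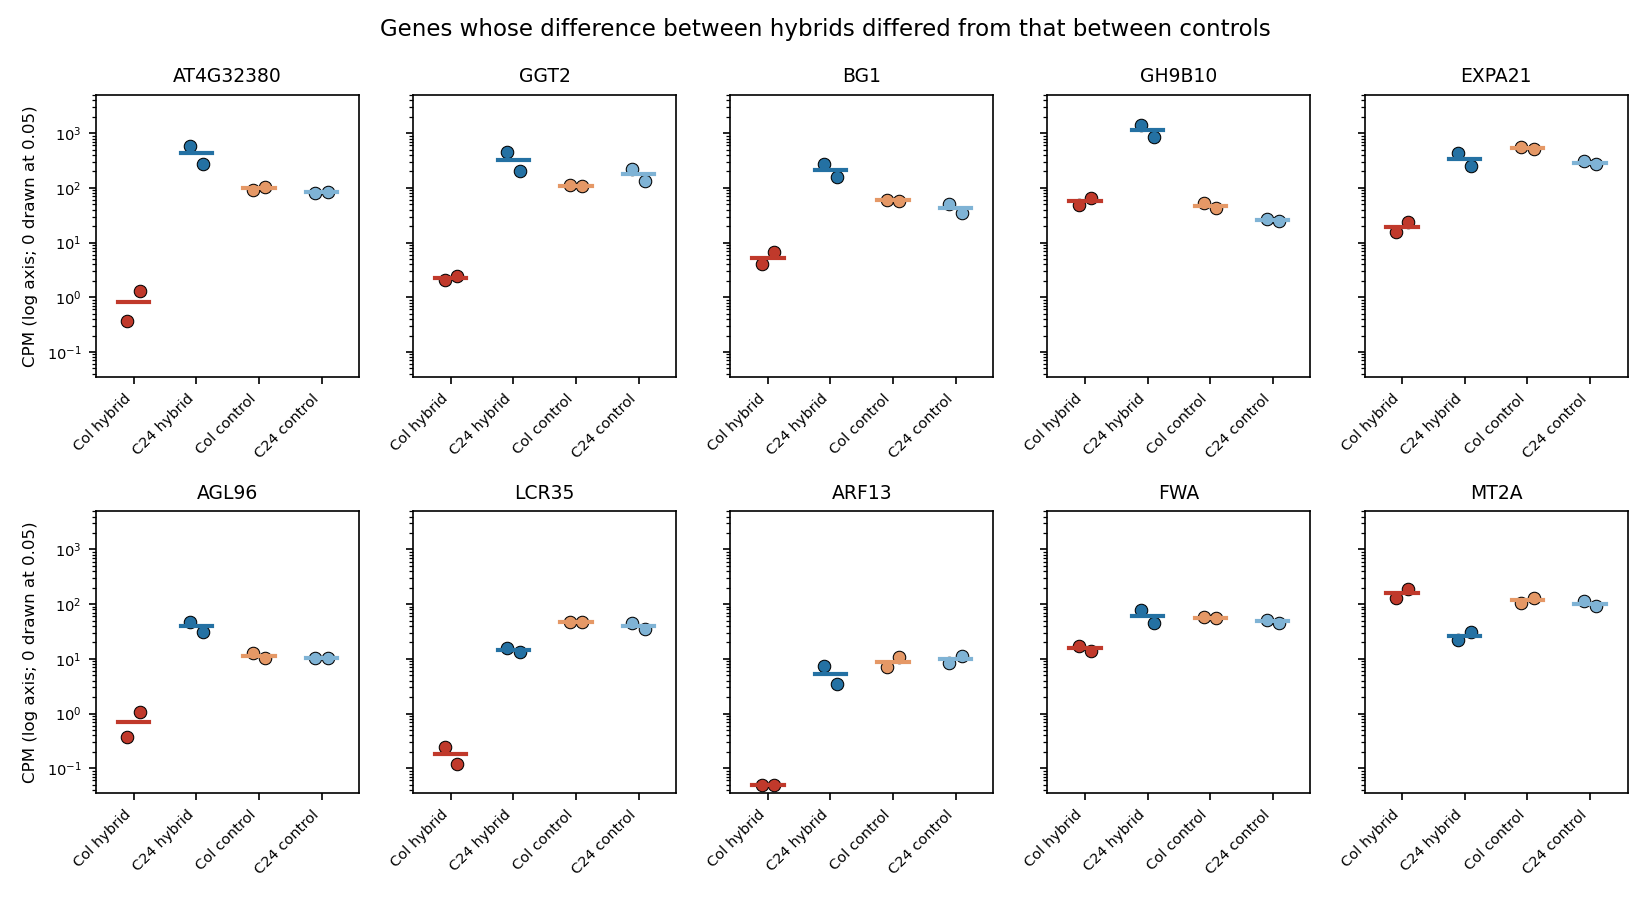
CPM on a log axis in each library of Col hybrid, C24 hybrid, Col control and C24 control seeds for 10 genes with a called interaction; points are libraries, bars are means, and values of 0 are drawn at 0.05. Both Col hybrid points lie below every other point for AT4G32380, GGT2, BG1, EXPA21, AGL96, LCR35, ARF13 and FWA, while for MT2A both C24 hybrid points lie below all others and for GH9B10 both lie above all others.

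Type I MADS-box genes are regulators of endosperm proliferation whose overexpression accompanies failure of many hybrid and interploidy seeds. Of 20 tested, 4 were lower and none higher. The called share was 20%, against 9.78% over all genes, where 4.58% were lower. Their median log2 fold change was -1.57, against -0.01 over all genes. Unadjusted p was under 0.05 for 13, all lower. AGL96 had 0.368 and 1.06 CPM in Col hybrid seeds, against 48.2 and 31.4 CPM in C24 hybrid seeds (-5.98 ± 0.4, adjusted p = 7.42e-05), with 12.8 and 10.2 CPM in Col control and 10.3 and 10.2 CPM in C24 control seeds. AGL48 had 4.1 and 3.07 CPM in Col hybrid seeds, against 33.7 and 18.5 CPM in C24 hybrid seeds (-2.83 ± 0.37, adjusted p = 0.00213). In the controls AGL48 ranged from 3.56 to 6.02 CPM, so that its C24 hybrid values stood out. AGL28 was lower, with 2.82 and 3.07 CPM in Col hybrid seeds, against 10.3 and 6.07 CPM in C24 hybrid seeds (-1.48 ± 0.35, adjusted p = 0.034), as was AT3G05860 (-1.88 ± 0.38, adjusted p = 0.017).

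Several better-known members were not called. PHE1, a paternally expressed gene, had 76.4 and 141 CPM in Col hybrid seeds and 158 and 44.1 CPM in C24 hybrid seeds (log2 fold change 0.1, adjusted p = 0.937). AGL62, which holds the endosperm in its syncytial phase, had 29 and 46.2 CPM in Col hybrid seeds and 88.8 and 43.3 CPM in C24 hybrid seeds (-0.83, adjusted p = 0.185). PHE2, the close relative of PHE1, had 12.1 and 24.1 CPM in Col hybrid seeds and 84.2 and 28.5 CPM in C24 hybrid seeds, values that do not overlap (-1.67 ± 0.53, adjusted p = 0.0862). AGL36 had 67.9 and 109 CPM in Col hybrid seeds and 98.5 and 34.7 CPM in C24 hybrid seeds (0.4, adjusted p = 0.63). Summed over the 23 genes, the levels were 276 and 458 CPM in Col hybrid seeds and 715 and 304 CPM in C24 hybrid seeds, and those in the controls were 155 and 196 CPM in Col and 140 and 119 CPM in C24. The sums of the 2 hybrids thus overlapped, with C24 hybrid library 2 between the 2 Col hybrid libraries and C24 hybrid library 1 above both. Leaving out any other library gave no member higher and from 2 lower (without Col hybrid library 1, median -1.01) to 10 lower (without C24 hybrid library 2, median -1.99), with 8 or 9 lower without a control library. Without C24 hybrid library 1, 2 members were higher and 2 lower, with a median of -0.67, and the AT3G05860 call ended (adjusted p = 0.121), as it did without Col hybrid library 1 (0.055). The AGL28 call ended without Col hybrid library 1 (0.141), Col hybrid library 2 (0.0617) or C24 hybrid library 1 (0.27), and with all 7 groups fitted together (0.24). With all 7 groups fitted together 2 members were called, and without a filter on low counts 11.

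**Figure D4:**
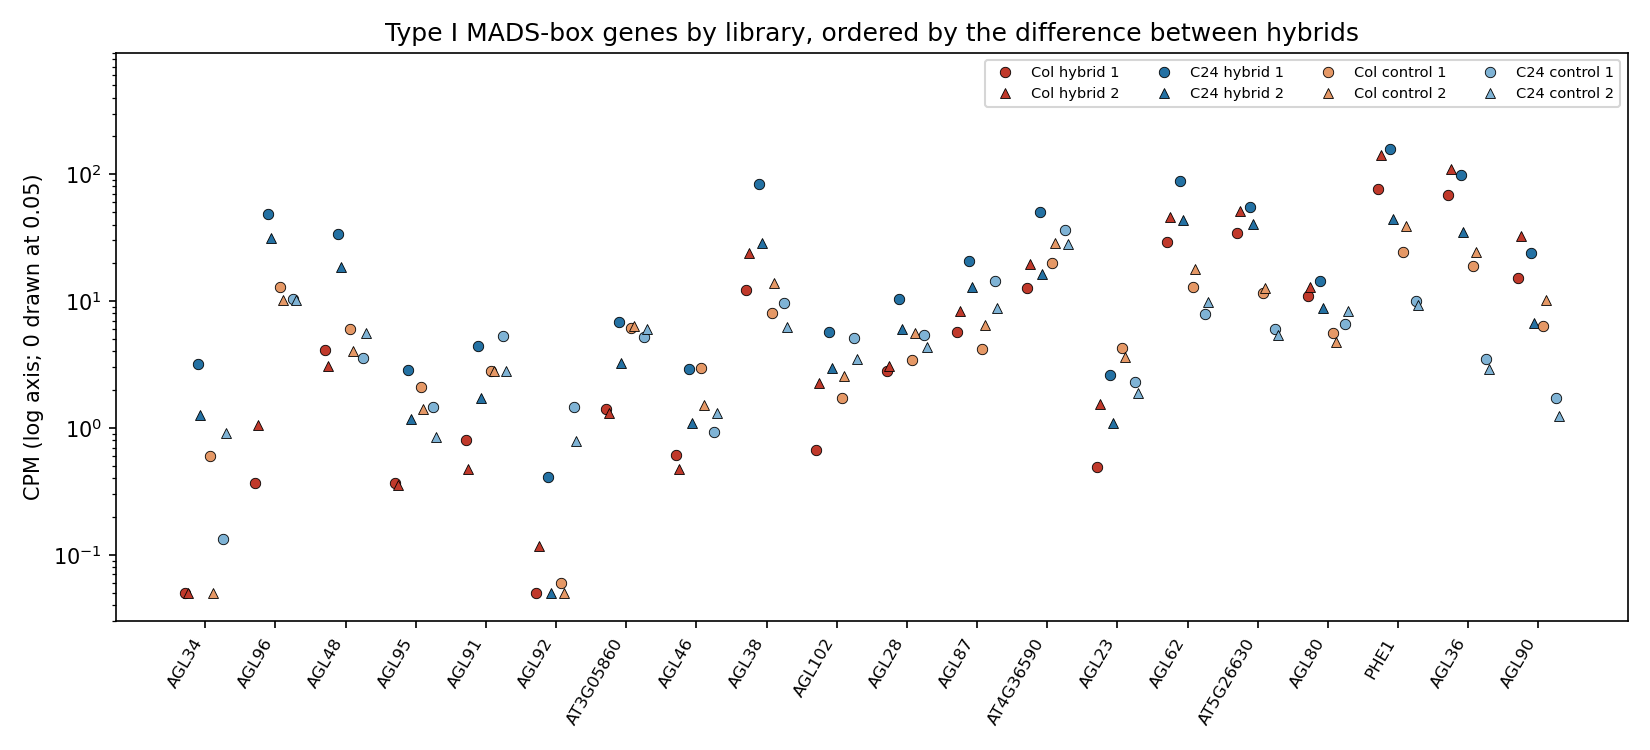
CPM on a log axis of the 20 type I MADS-box genes tested, in each library of Col hybrid, C24 hybrid, Col control and C24 control seeds. Values of 0 are drawn at 0.05. AGL96 shows the widest gap, while both Col hybrid points of PHE1 lie between the C24 hybrid libraries.

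Imprinted genes and the FIS Polycomb complex, which keeps the endosperm in check from the mother's side, gave 1 lower of 17 tested. This was 5.88%, against 9.78% called over all genes. The list had a median of -0.27 and 5 members at an unadjusted p under 0.05, all lower. The median was 0 without C24 hybrid library 1, and 4 members were lower without C24 hybrid library 2 or C24 control library 1, 3 without C24 control library 2 and 2 without Col hybrid library 1. FWA, a homeodomain gene read from the maternal copy in endosperm, had 17.3 and 13.8 CPM in Col hybrid seeds, against 77.9 and 46.2 CPM in C24 hybrid seeds (-1.98 ± 0.25, adjusted p = 0.00164). Its controls, at 58 and 55.8 CPM in Col and 51.7 and 45.7 CPM in C24, lay above both Col hybrid libraries. The core members MEA, FIE and MSI1 had log2 fold changes of 0.35, -0.26 and -0.08 (adjusted p of 0.424, 0.313 and 0.761). FIS2 had 0.98 and 0.236 CPM in Col hybrid seeds and 2.2 and 1.9 CPM in C24 hybrid seeds (adjusted p = 0.138), with 15.4 and 8.86 CPM in Col control and 28.7 and 18.8 CPM in C24 control seeds.

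Of 7 endosperm growth genes tested, 2 were lower (none without C24 hybrid library 1, 4 without C24 hybrid library 2) and all 7 fold changes were negative, with a median of -1.22. The called share of this short list was 28.6%, against 9.78% over all genes. WRKY10, known as MINI3 and required for seed size, had 10.5 and 9.33 CPM in Col hybrid seeds, against 28.9 and 20.2 CPM in C24 hybrid seeds (-1.3 ± 0.21, adjusted p = 0.00585). Between the controls it was higher in Col, with 13.3 and 15.1 CPM, against 4.15 and 5.05 CPM in C24, and the interaction was -2.93 (adjusted p = 0.00438). CKX2, which degrades cytokinin, had 49.4 and 70.8 CPM in Col hybrid seeds, against 179 and 100 CPM in C24 hybrid seeds (-1.22 ± 0.3, adjusted p = 0.0372). Both calls ended without C24 hybrid library 1 (adjusted p of 0.0551 and 0.313) and when all 7 groups were fitted together (0.0622 and 0.38), and that of CKX2 also without Col hybrid library 1 (0.192). The summed levels of imprinted, endosperm growth and type I MADS-box genes were all higher in C24 hybrid library 1 than in C24 hybrid library 2, and the part of this in their medians was not tested.

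Genes of the embryo, the seed coat and the sugar supply gave few calls, at shares at or below the 9.78% over all genes. None of 16 embryo regulators was called in the main edgeR fit, with 4 at an unadjusted p under 0.05. With DESeq2, or with edgeR and no filter on low counts, 1 was called, higher. PDF1, an epidermal marker, had 298 and 113 CPM in Col hybrid seeds and 64 and 97.2 CPM in C24 hybrid seeds (1.35 ± 0.41, adjusted p = 0.0774), and ATML1, an epidermal homeodomain factor, 218 and 244 CPM and 190 and 210 CPM. Of 23 seed coat and flavonoid genes 1 was higher and 1 lower (8.7% called). STK, the MADS-box gene of ovule identity, had 333 and 415 CPM in Col hybrid seeds, against 201 and 205 CPM in C24 hybrid seeds (0.88 ± 0.17, adjusted p = 0.0127), and TT1, a zinc finger needed for seed coat pigment, had 27 and 35.2 CPM, against 53.4 and 46.8 CPM (-0.7 ± 0.16, adjusted p = 0.028). The STK call ended without Col hybrid 2 (adjusted p = 0.2), C24 hybrid 1 (0.131) or C24 hybrid 2 (0.109). None of 11 sugar transport genes was called with either tool, with 3 at an unadjusted p under 0.05. Among fruit genes, SHP1, a valve margin gene also active in ovules, had 193 and 255 CPM in Col hybrid seeds and 220 and 235 CPM in C24 hybrid seeds, and none of the 9 tested was called by either tool or had an unadjusted p under 0.05.

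Cell cycle, DNA methylation, photosynthesis, heat and auxin genes gave 1 to 3 calls a list, in shares of 10.5%, 15%, 4.55%, 10% and 11.1%, most of them near the 9.78% over all genes, and most calls rested on narrow margins. Of 19 cell cycle genes, the replication licensing factor CDC6 (-0.8 ± 0.18, adjusted p = 0.0266) and the mitotic cyclin CYCB1;1 (-1.3 ± 0.31, adjusted p = 0.0318) were lower. Of 20 DNA methylation and silencing genes, CMT3, a methyltransferase of non-CG sites, was lower (-0.61 ± 0.14, adjusted p = 0.0317), while DML1, the demethylase also called ROS1, was higher (0.75 ± 0.19, adjusted p = 0.0403). VIM2, needed for CG methylation, was also higher, with 17.9 and 24 CPM in Col hybrid seeds, against 9.78 and 5.25 CPM in C24 hybrid seeds, but 76.9% of its exon sequence recurs elsewhere. Of 22 photosynthesis genes only CAB3, an antenna protein, was lower (-0.95 ± 0.21, adjusted p = 0.0269), with 25.1% of its sequence recurring. Of 10 heat and stress genes HSP90.1, a chaperone, was lower (-0.79 ± 0.18, adjusted p = 0.0255), and of 9 auxin genes TAR2, an auxin synthesis enzyme, was lower (-0.56 ± 0.13, adjusted p = 0.0332). The calls of TT1, CDC6, CMT3, DML1, HSP90.1 and TAR2 each ended without any 1 of the 4 hybrid libraries, with adjusted p from 0.114 to 0.309, 0.13 to 0.325, 0.263 to 0.515, 0.125 to 0.327, 0.0767 to 0.309 and 0.386 to 0.508. They ended without either C24 control library as well, with the lowest adjusted p at 0.0629 and the highest at 0.3, and those of CDC6 and TAR2 also without Col control 2 (0.0596 and 0.0699), that of TAR2 without Col control 1 (0.0687). The CYCB1;1 call ended without Col hybrid 2 (0.164) or C24 hybrid 1 (0.211), and the CAB3 call without Col hybrid 2 (0.411), C24 hybrid 1 (0.246) or C24 hybrid 2 (0.0525). With all 7 groups fitted together all of these calls and that of VIM2 ended, with adjusted p from 0.0668 to 0.599, and those of CDC6, CMT3 and TAR2 also without the filter on low counts (0.0832, 0.0926 and 0.167).

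**Figure D5:**
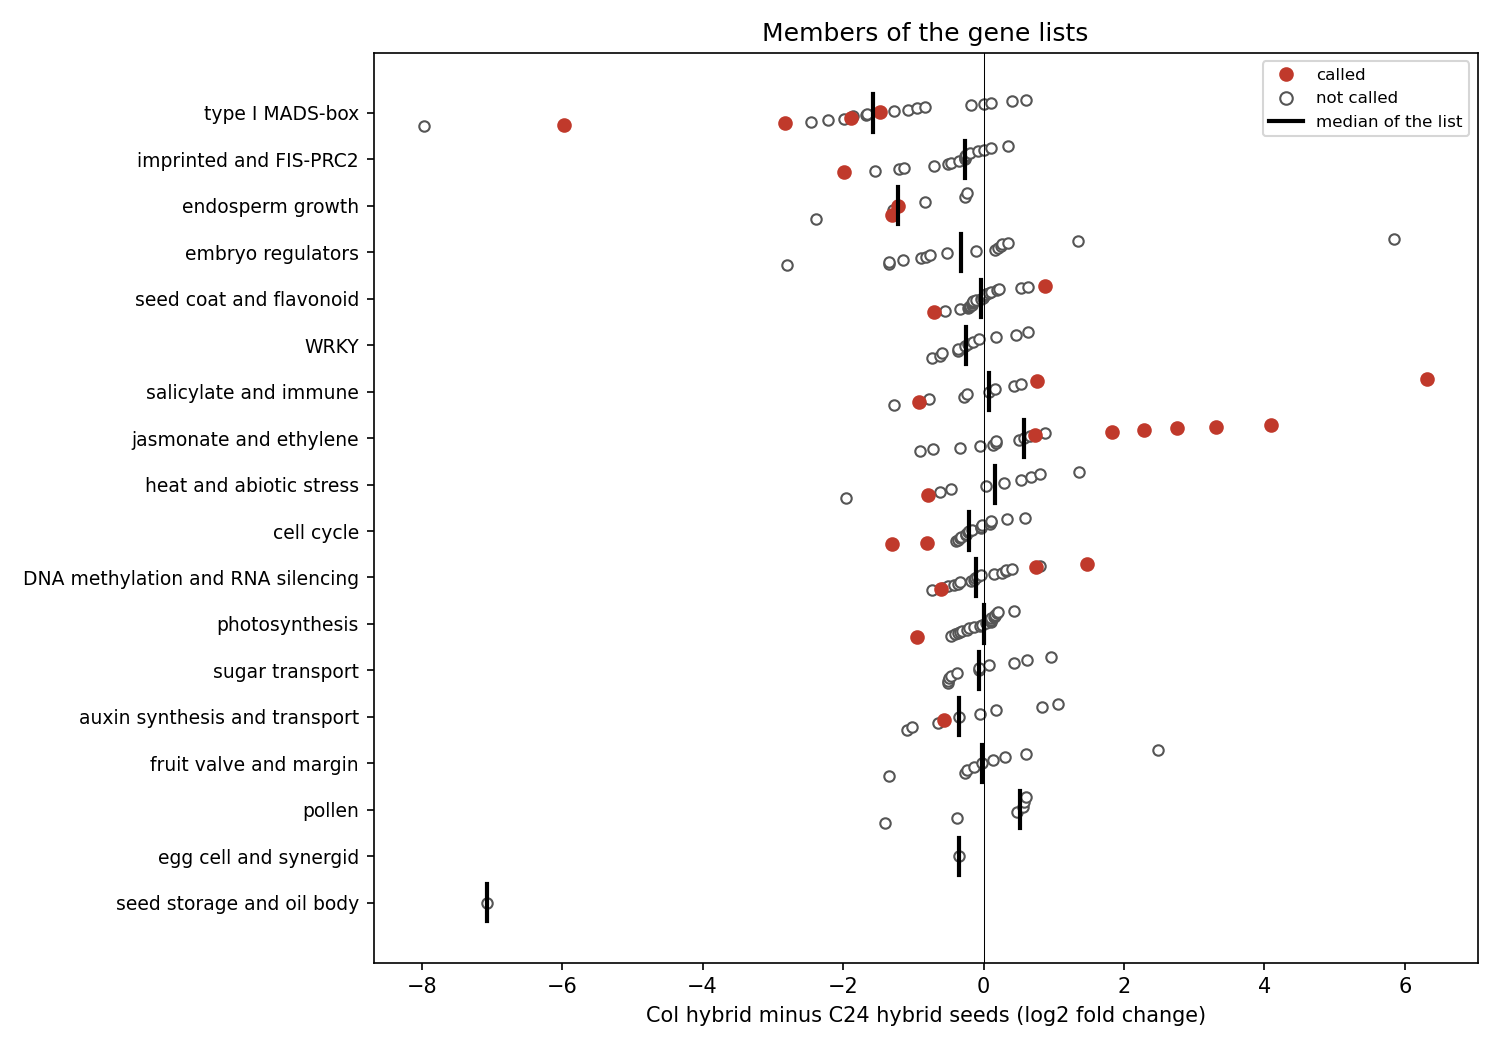
Log2 fold change of Col hybrid over C24 hybrid seeds for each tested member of the 18 gene lists (points, filled where adjusted p is under 0.05) with the median of each list. Type I MADS-box and endosperm growth genes have medians of -1.57 and -1.22, jasmonate and ethylene genes one of 0.58, and most other lists lie close to 0.

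Siliques of the same crosses, sequenced as separate libraries with the fruit wall included, gave 892 of 20700 genes (4.31%) that differed between Col hybrid and C24 hybrid, 515 (2.49%) higher and 377 (1.82%) lower. Without Col hybrid silique library 2 the count was 562. Of 2003 seed genes tested in siliques, 436 (21.8%, and 48.9% of the 892) were called the same way and 7 the opposite way. The share was 388 of 1135 (34.2%) for genes shared with the controls, and 48 of 805 (5.96%) for genes not called in the controls. Among the genes with a called interaction, 7 of 142 lower ones and 8 of 48 higher ones were called the same way in siliques, and none the opposite way. All 8 higher ones were also called higher in Col control seeds. In AT1G23960, AT1G31250, AT1G32280, BZIP9 and HSD3 the gap between the hybrid seeds was smaller than that between the controls. In AT5G52810, AT5G55896 and AT1G23950 it was larger. AGL96 was 1 of the 7 lower ones (log2 fold change -5.68, adjusted p = 0.00196). ALD1, VSP2 and AGL31, which were shared with the controls, were higher in Col hybrid siliques too (7.42, 2.05 and 1.79). THI2.1, VSP1, FLS2 and EXPA6, also shared with the controls, were not called in siliques (0.39, 0.81, -0.42 and 0.08). A silique holds fruit wall RNA beside that of its seeds, so a difference found in seeds was read here against another background.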

How the data were processed

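Whole-seed and silique poly-A RNA was reverse transcribed with random primers and sequenced, per the labels' protocols; no strand marking is stated, so overlapping and antisense genes cannot be told apart. The deposited table holds raw read counts per gene; the submitters' processing notes name BWA and TAIR10, and the counting rule and the handling of reads with several matches are not given in the sources used here. Each deposited control column is the sum of 2 records. The members and gene lists were chosen with earlier results of these data known.

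Counts of the 8 seed libraries in 4 groups were fitted together with edgeR 4.0.16 (R 4.3.3): TMM scaling, filterByExpr, quasi-likelihood test, Benjamini-Hochberg threshold 0.05, which left 20552 genes. The control difference and the interaction came from the same fit, and the silique difference from a fit of the 4 hybrid groups. CPM use TMM-scaled totals, and SE is the log2 fold change over the root of F. Groups with 0 reads give a bound at a floor of 3 reads per library, those with 1 to 3 reads a ratio with an exact 95% binomial interval; both cover counting error only. Names come from the TAIR10.1 annotation, which paired 32835 of 33602 loci; 31-base exon words found elsewhere in over 5% mark a gene as not unique. No 2 libraries of a group agreed within sampling noise (chi-square per degree of freedom of 14 or more). Named genes are the 10 largest changes per direction among unique nuclear genes with a mean of at least 10 CPM and no overlap, up to 3 called genes per list (or its 2 most abundant where none was called), the 5 lowest hybrid p among genes turned round between hybrids and controls, and others said to be chosen after their values were seen. The fit was tested on simulated data. Alternatives were RLE and upper quartile scaling, other filters, DESeq2 1.42.0, other sets of groups, each library left out, a replicate block and unique genes only.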

Additional observations from a re-analysis of the deposited data

Results flagged for a closer look

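The difference between Col hybrid and C24 hybrid seeds departed from the difference between Col control and C24 control seeds at 36 of the named genes, by the interaction test of the edgeR fit across all genes. Values in parentheses are the log2 fold change in hybrid seeds minus that in control seeds, and a negative one means relatively lower in Col hybrid seeds. Cell wall enzymes and expansins were AT4G32380 (-9.5), BG1 (-5.88), GH9B9 (-4.63), GH9B10 (-5.16), GH9B11 (-3.7), MUM2 (-3.39), BGAL7 (-3.26), EXPA21 (-5.02), EXPA23 (-2.78), EXPA25 (-2.13) and EXPB4 (-2.02). Small secreted proteins and DUF239 members were LCR35 (-6.35), LCR21 (-3.18), LCR22 (-4.03), LCR23 (-4.58), SCRL14 (-3.45), AT1G24062 (-2.6), AT5G46810 (-7.25) and AT5G25410 (-6.78). Transcription factors were AGL96 (-6.14), AGL48 (-2.96), FWA (-2.2), WRKY10 (-2.93), WRKY33 (-3.62), ARF13 (-9.08), AT3G10595 (-6.76) and AT2G19220 (-7.32). The others were GGT2 (-6.47), NAKR1 (-3.46), AT1G56233 (-7.89), AT2G02498 (-5.73), AT1G22420 (-8.07) and AT5G40680 (-6.32). Positive values were those of JR1 (3.49), MT2A (2.37) and MYB3 (1.78). Adjusted p over all genes ran from 0.000437 (AT1G56233, AT3G10595 and LCR35) to 0.0435 (WRKY33). The fitted values of AT1G22420, AT2G19220 and ARF13 rest on 0 or 1 read in a Col hybrid library and depend on the prior count. Many of the named genes were chosen for their hybrid values, so this number is no measure of how common such departures are; over all genes 285 of 20552 (1.39%) passed. Groups of 2 libraries were not searched for single outlying libraries.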

How the results depend on the processing

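The 2009 genes called between Col hybrid and C24 hybrid seeds stayed within 1.5 times that number under RLE scaling (1986), upper quartile scaling (2008), no filter (2475), a minimum mean of 5 CPM (1835), DESeq2 (2143), a fit of the 2 compared groups (1936) and unique genes only (1859). A fit over all 7 groups called 1140, and leaving out 1 library gave 1042 to 2245. For the controls (3444) all 7 groups gave 1802, the loss of replicate 1 of both controls 1142, and single libraries 1578 to 3261. For the interaction (285) no filter gave 1052, DESeq2 681, all 7 groups 33, the loss of replicate 1 of both controls 153, and single libraries 190 to 542. For genes shared with the controls (1135) all 7 groups gave 707, the loss of replicate 1 of both controls 743, and single libraries 727 to 1061. For siliques (892) no filter gave 2019, the compared groups alone 560, and single libraries 562 to 682. The cause was not tested, beyond the fewer libraries that leaving one out implies. Upper quartile scaling moved the median of all genes between controls to 0.11, where it was 0.01, and the split there to 1948 higher of 3267 calls, where it was 1613 of 3444; it moved the median of the interaction to -0.13, where it was -0.02.

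The replicate numbers were not shown to pair the libraries: deviations of same-numbered libraries correlated at -0.102, -0.08 and -0.074 for Col hybrid with C24 hybrid, Col control and C24 control, although C24 hybrid, Col control and C24 control correlated with each other at 0.353 to 0.69. With the replicate number as a block the calls were 2141 for the hybrids, 3708 for the controls, 344 for the interaction, 1219 shared and 626 in siliques.

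No named gene changed direction with its call under any alternative run. Over genes and alternatives, 1581 outcomes kept their side of the threshold, 110 lost a call and 27 gained one. The lost calls belonged to 25 genes, and the 10 largest fitted changes in each direction kept theirs in all alternatives run. Raising or lowering the level that marks a near-absent locus, chosen after seeing the data, gave 144 loci in C24 hybrid and 108 in Col hybrid seeds at 1 CPM, 24 and 9 at 10 CPM, and 23 and 7 with 0 reads required. Depth limits genes of few reads: 3 reads stood for 0.354 CPM in Col hybrid library 2 and 0.184 CPM in Col hybrid library 1.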
